A study of Drosophila melanogaster with 2 samples.

Results

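The regions described here are peaks of CG14667-eGFP binding whose summits lie in DNA rich in G and C. They are the peaks of the conservative thresholded list with 45% or more G and C from 50 bp to the left of the summit to 50 bp to its right, read from the dm6 sequence. Of the 3029 peaks on the chromosome arms, 378 met this limit, or 12.5% (95% Wilson interval 11.3% to 13.7%), and the other 2651 peaks serve as the comparison. The chromatin came from whole Drosophila melanogaster embryos aged 0 to 24 h of a transgenic strain in which the protein CG14667 carries eGFP, and the fused protein was precipitated with an antibody to GFP. There were 2 biological replicates of this 1 group, so there is no contrast of genotypes, ages or treatments, and whole embryos pool all their cell types. The lists do not give the read depth behind a peak, so depth is unknown, and intervals on shares cover the counting of peaks only.

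CG14667 belongs to the ZAD zinc-finger proteins, a family that is large in insects and pairs a zinc-binding domain at one end with zinc fingers that can contact DNA. In ChIP-seq the summit of a peak marks the point of greatest enrichment, so the bases around it are where a bound DNA word would be looked for. Among fly proteins known to contact defined words, CTCF is a zinc-finger insulator protein that recognises AGATGGCGC and AGGTGGCGC, DREF recognises TATCGATA at many promoters of housekeeping genes, and the boundary protein BEAF-32 recognises CGATA.

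Windows of the GC-rich summits are printed below from the reference strand of dm6, 5′ to 3′, with the summit at the central base. Capitals mark AGATGGCGC, AGGTGGCGC, CAGCACTG, CACAGTGG and ATCGATA on either strand, so that where ATCGATA is on both strands all of TATCGATA is in capitals; these words were chosen after the frequencies at the summits had been seen. The first 3 windows are shown because each holds several CTCF-type words, and they lie in intergenic DNA, upstream of dco and in an intron near CG43693. The next 3 show the words CAGCACTG upstream of CG33169, CACAGTGG upstream of Top1, the gene of DNA topoisomerase I, and ATCGATA upstream of the ribosomal protein gene RpL37-1. The windows upstream of RpL23A and RpS5a show ribosomal protein promoters with none of the words. The last 3 are the strongest GC-rich summit, next to lncRNA:CR45643, a summit in coding sequence of qtc, and a summit in an intron near Unc-76 beside a stronger peak.
intergenic summit (chr3R:14391375-14391475): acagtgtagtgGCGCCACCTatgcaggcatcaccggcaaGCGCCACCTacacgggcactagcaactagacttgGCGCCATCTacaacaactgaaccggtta
dco (chr3R:31061482-31061582): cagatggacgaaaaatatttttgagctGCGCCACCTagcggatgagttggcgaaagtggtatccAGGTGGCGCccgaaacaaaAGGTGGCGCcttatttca
CG43693 (chr3L:11048027-11048127): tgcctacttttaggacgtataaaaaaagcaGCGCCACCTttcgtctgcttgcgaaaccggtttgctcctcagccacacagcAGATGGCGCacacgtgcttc
CG33169 (chr3L:22863742-22863842): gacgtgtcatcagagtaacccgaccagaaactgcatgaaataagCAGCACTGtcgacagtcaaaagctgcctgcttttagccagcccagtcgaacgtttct
Top1 (chrX:15323356-15323456): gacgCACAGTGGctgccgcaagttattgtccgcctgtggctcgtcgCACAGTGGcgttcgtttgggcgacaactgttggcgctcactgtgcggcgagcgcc
RpL37-1 (chrX:15139368-15139468): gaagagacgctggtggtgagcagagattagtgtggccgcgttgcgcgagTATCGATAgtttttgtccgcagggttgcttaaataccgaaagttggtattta
RpL23A (chr3L:1668704-1668804): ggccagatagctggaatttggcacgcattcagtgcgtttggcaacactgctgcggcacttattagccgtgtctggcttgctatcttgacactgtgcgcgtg
RpS5a (chrX:17148295-17148395): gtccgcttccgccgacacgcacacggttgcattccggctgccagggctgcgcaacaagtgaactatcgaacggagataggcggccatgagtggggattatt
lncRNA:CR45643 (chr3R:16222437-16222537): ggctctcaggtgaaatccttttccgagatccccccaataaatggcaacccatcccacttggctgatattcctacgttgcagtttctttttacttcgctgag
qtc (chr2L:5066939-5067039): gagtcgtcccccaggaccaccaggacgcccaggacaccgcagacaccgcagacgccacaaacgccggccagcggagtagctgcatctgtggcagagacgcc
Unc-76 (chrX:2087870-2087970): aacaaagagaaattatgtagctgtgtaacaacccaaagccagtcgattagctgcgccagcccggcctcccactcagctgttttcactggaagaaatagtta

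The 3 CTCF-type windows differ in how many copies they hold. The intergenic window has 3 copies, all on the minus strand, and its peak had a pooled signal of 313.9, with 136.7 in replicate 1 and 181.9 in replicate 2. The dco window, upstream of the gene of a casein kinase of the circadian clock, also has 3 copies, and its peak had 266.0 pooled, 101.3 in replicate 1 and 166.1 in replicate 2. The CG43693 window has 2 copies, 1 on each strand, and its peak had 158.9 pooled, 78.2 in replicate 1 and 76.4 in replicate 2. The qtc window holds none of the words; its peak had 75.7 pooled and was in neither replicate's own thresholded list.

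G and C averaged 52.5% ± 6.21 (SD, n = 378 peaks) at the GC-rich summits and 30.5% ± 6.87 (SD, n = 2651) at the other summits, values fixed by the rule. The median was 50.5% and the highest value 76.2%, reached in coding exons of sens-2 and dpr9. What the rule did not use is the DNA beside the summit. In equally wide windows 300 bp to the left, G and C averaged 42.1% ± 11.3 at the GC-rich peaks and 45.2% ± 9.54 at the other peaks, and 300 bp to the right 42.2% ± 11.2 and 44.3% ± 9.65. The flanks of both kinds of peak were thus close to each other in composition. The summits lay above them at the GC-rich peaks and below them at the others. As the limit of 45% is close to the averages of the flanks, these opposite directions are largely set by the rule. The plot of base composition by distance shows flanks and summits.

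**Figure D1:**
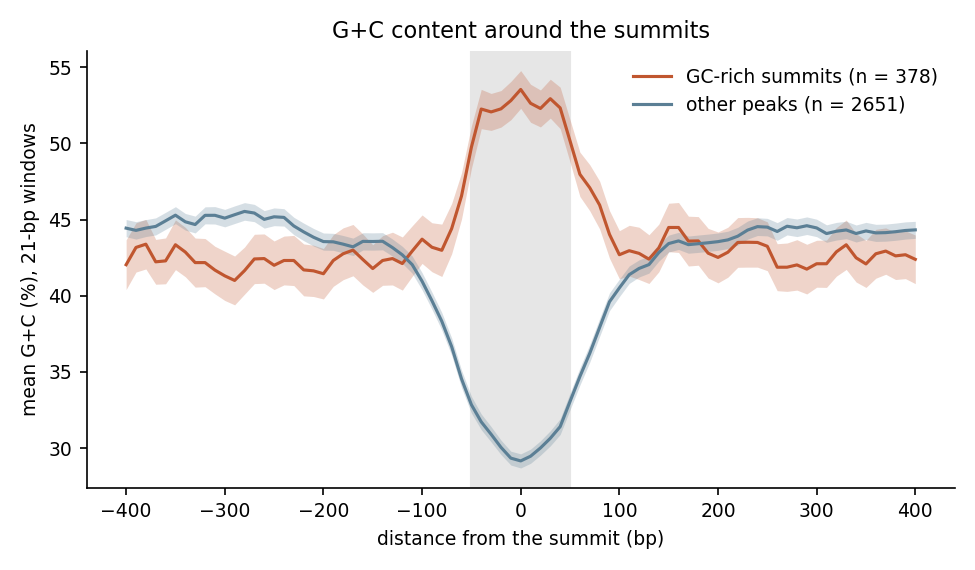
Mean G+C in 21-bp windows against the distance from the summit, for 378 GC-rich summits and 2651 other peaks; shading is 2 standard errors over peaks to either side of the mean, and the grey band is the window used by the rule. The GC-rich summits average 53.5% at the centre and the other summits 29.2%, and both lie between 41% and 46% beyond 150 bp.

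The limit of 45% falls inside a continuous range. The 39 peaks just inside it have 46 bases G or C in the window, and the strongest of them lie at starts of MFS10 (signal 911.3), mrt (415.8) and Msp300 (338.1). The 43 just outside it have 45, and the strongest are at tank (895.9), RpL32 (279.8) and RapGAP1 (188.2). Median signals were 90.5 just inside and 90.8 just outside, and 46.2% and 48.8% of these peaks were in both replicates' own lists.

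GC-rich summits gave weaker peaks. Their pooled signal, the authors' value of enrichment over a control on a scale that is not stated, had a median of 80.4 (quartiles 66.4 and 125.1) at GC-rich summits, against 122.1 (85.7 and 192.6) at the other peaks. Of the GC-rich peaks 103 of 378 (27.2%, interval 23.0% to 31.9%) exceeded the median of the whole list, against 1411 of 2651 (53.2%, 51.3% to 55.1%) of the other peaks. By Fisher's exact test, two-sided here and below, the odds ratio was 0.329 (p = 1.27e-21). Peaks are places in 1 pair of embryo pools and not independent replicates, so this p and those below describe the lists. The range was wide: the strongest GC-rich peak had 1163.4 and ranked 18 in the list, and 19 GC-rich peaks were among the 300 strongest. By steps of G and C, the median signal was 68.2 at 60% or more, 95.6 from 45% to below 50%, and 134.9 below 25%.

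Replicate support was lower too, and went with signal. Each replicate has its own thresholded list; 192 GC-rich peaks (50.8%) overlapped a peak of replicate 1 and 191 (50.5%) a peak of replicate 2, against 2008 (75.7%) and 1762 (66.5%) of the other peaks. In both lists were 145 of 378 GC-rich peaks (38.4%, 33.6% to 43.4%) and 1556 of 2651 other peaks (58.7%, 56.8% to 60.6%), where 56.2% of all peaks of the list were. This gave an odds ratio of 0.438 (Fisher's exact test, p = 1.55e-13). In a logistic fit with log2 signal as a term (n = 3029) the odds ratio was 1.06 (95% interval 0.771 to 1.44, p = 0.737), so at equal signal no difference in support was found, within that interval. Of the 100 strongest GC-rich peaks, with signals of 122.8 or more, 94 were in both lists, of the next 100 it was 35, and of the weakest 178, with 78.7 or less, it was 16. Of these 16 peaks, 15 overlapped a stronger peak of the list. All 39 GC-rich peaks that did so were among the weakest 178. At none of the 39 were both replicate summits within 100 bp of the pooled summit.

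**Figure D2:**
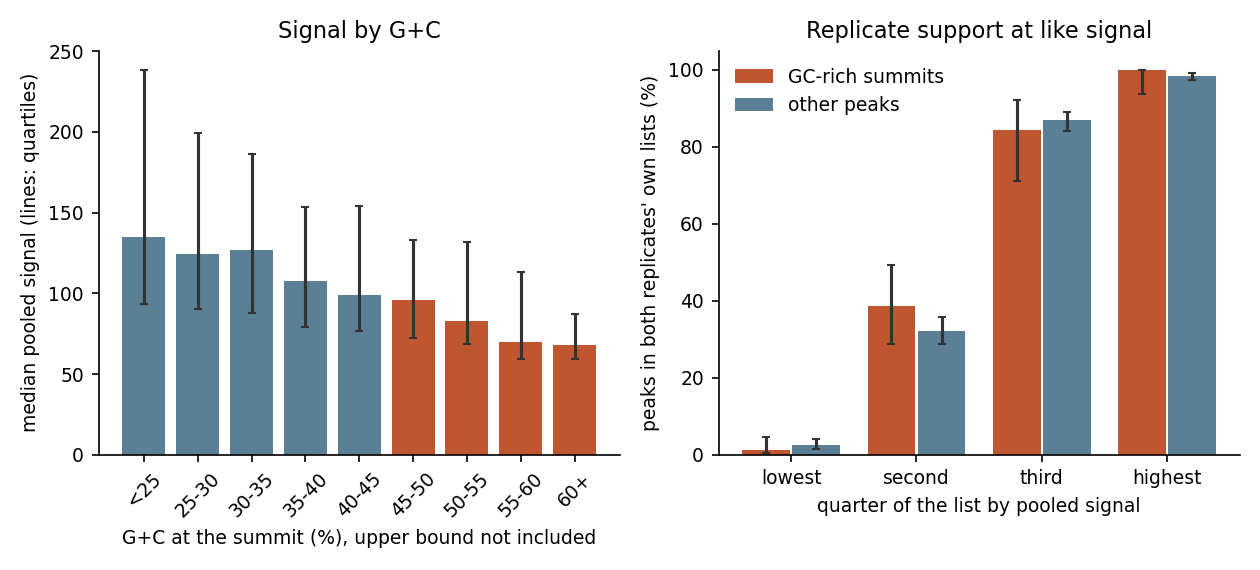
Left, median pooled signal of the peaks (bars) with quartiles (lines) by G+C of the window at the summit, GC-rich classes in orange; right, share of peaks in both replicates' own lists by 4 equal ranges of rank in the list's signal, for GC-rich summits and other peaks, with 95% Wilson intervals and without peaks that overlap a stronger one. In the highest range 58 of 58 GC-rich peaks and 98.6% of the other peaks were in both lists, and in the lowest 1.31% and 2.50%.

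Overlap with a stronger peak was more frequent among GC-rich peaks. Of the 378, 39 (10.3%, 7.64% to 13.8%) overlapped a stronger peak of the same list, against 51 of 2651 (1.92%, 1.47% to 2.52%) of the other peaks. Their summits were 199 to 229 bp from that of the stronger peak (median 202), and the stronger peak was on the side of lower coordinates at all 39 GC-rich peaks and at 50 of the 51 others. Their own signal was small, with a median of 7.18 and a highest value of 67.8, where the stronger neighbours had a median of 88.6; 32 of the 39 neighbours were not GC-rich. Near Unc-76 such a peak had 26.1 pooled, but the replicate peaks it overlapped, which the stronger peak beside it overlaps too, had 54.2 and 50.8. Of these 39 peaks 15 counted as supported by both replicates, and at none of them were both replicate summits within 100 bp of the pooled summit. With a replicate summit within 100 bp required, 130 of 378 GC-rich peaks (34.4%) and 1518 of 2651 other peaks (57.3%) had support from both (odds ratio 0.391, Fisher's exact test, p = 8.57e-17). Without the overlapping peaks the median signal was 89.0 at 339 GC-rich summits and 123.6 at 2600 other peaks, and the odds ratio for a signal above the median of the list was 0.376 (Fisher's exact test, p = 6.97e-16).

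The base composition seen at the pooled summit mostly held at the replicates' own summits. Among GC-rich peaks found in a replicate's own list, 137 of 192 (71.4%, 64.6% to 77.3%) had 45% or more G and C around the summit of replicate 1, and 148 of 191 (77.5%, 71.1% to 82.8%) around that of replicate 2. The replicate summits lay a median of 12 and 11 bp from the pooled one. The other thresholded list of the series overlapped 322 of the 378 GC-rich peaks (85.2%) and 2482 of the other 2651 (93.6%).

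The signals of the replicates stood in different proportion at GC-rich and other peaks. Where a peak was in both own lists, log2 of replicate 1 over replicate 2 had a median of 0.01 at 145 GC-rich peaks (SD 0.47 over peaks) and of 0.25 at 1556 other peaks (SD 0.38). The replicates' lists are not known to share a scale, so only the difference between the 2 kinds of peak is read. This difference is smaller than the spread among peaks, and it was not tested. Over all peaks of the list, taken from the replicates' ranked lists, the median of this log2 ratio was 0.07 (SD 0.47) in the 564 peaks with 41.6% or more G and C and 0.29 (SD 0.44) in the 609 with 24.8% or less. The plot of one replicate against the other shows the GC-rich peaks on both sides of equality.

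**Figure D3:**
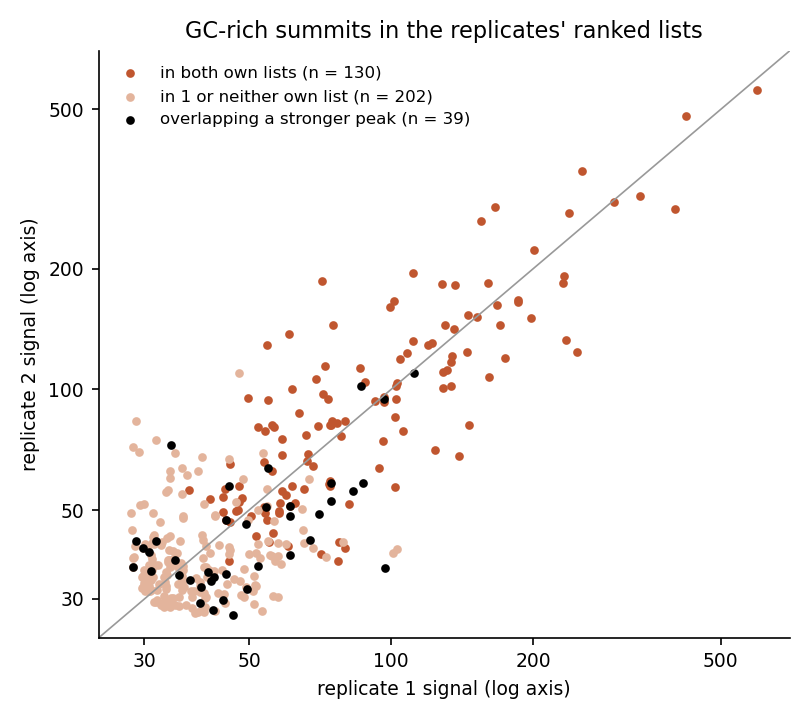
Signal of replicate 2 against replicate 1 at the 371 GC-rich peaks with a candidate in both ranked lists (log axes; the line marks equal signals; colours give membership of the replicates' own thresholded lists or overlap with a stronger peak). The 130 peaks in both own lists that overlap no stronger peak reach 597.2 and 558.0 at the strongest GC-rich peak.

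GC-rich DNA was common among the candidates and rare among the peaks kept. The ranked list behind the conservative list holds 126482 candidates on the arms, 59.9% of them GC-rich by the same rule, and 2.39% of all candidates were kept. Of 75718 GC-rich candidates 378 were kept (0.499%, 0.451% to 0.552%), against 2651 of 50764 other candidates (5.22%, 5.03% to 5.42%). The odds ratio was 0.0911, with a p from Fisher's exact test too small to be represented. The share kept was lower for GC-rich candidates in every annotation class but coding exons: at starts 1.77% of GC-rich candidates and 18.1% of other candidates were kept, in introns 0.438% and 4.01%, in intergenic DNA 0.363% and 2.59%, and in other exons 0.485% and 2.35%. In coding exons 0.127% of GC-rich candidates and 0.0561% of other candidates were kept, the second share from 1 peak.

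GC-rich summits had a share at gene starts close to that of the other peaks, a lower share in introns and a higher one in coding exons. A summit lay within 500 bp of a transcript start at 172 of 378 GC-rich peaks (45.5%, 40.6% to 50.5%) and at 1211 of 2651 other peaks (45.7%, 43.8% to 47.6%), against 45.7% of all peaks (odds ratio 0.993, Fisher's exact test, p adjusted over 5 location tests 0.956). With log2 signal as a term in a logistic fit (n = 3029) it was 1.25 (interval 1.00 to 1.57, p = 0.0490). Among peaks with the highest IDR score, the deposited measure of agreement between replicates, it was 1.47 (Fisher's exact test, adjusted p = 0.0104), and in the other thresholded list 0.790 (adjusted exact p = 0.0202), so the sign of this comparison depends on the peaks used. Over 500 bp from starts, 101 GC-rich peaks (26.7%) and 984 other peaks (37.1%) were in introns, where 35.8% of all peaks were (odds ratio 0.618, exact test, adjusted p = 0.000182). GC-rich candidates were less often in introns too: of those not kept 30.4% lay there, against 37.7% of all candidates not kept. The intron class is thus linked to the rule, and this test does not separate it from base composition. In intergenic DNA were 66 GC-rich peaks (17.5%) and 402 other peaks (15.2%), near the 15.5% of all peaks (exact test, adjusted p = 0.317). On X were 66 GC-rich peaks (17.5%) and 552 other peaks (20.8%), against 20.4% of all (odds ratio 0.804, exact test, adjusted p = 0.223), and with a GC limit of 50% or in the other list this passed the threshold, at odds ratios of 0.643 and 0.739.

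**Figure D4:**
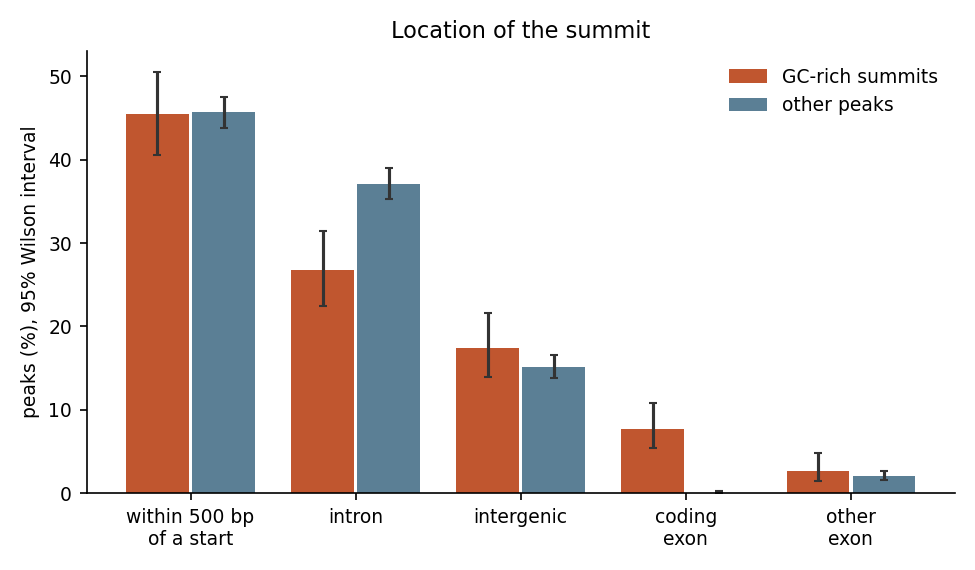
Share of GC-rich summits (n = 378) and of other peaks (n = 2651) in each annotation class, with 95% Wilson intervals; classes other than the first lie over 500 bp from every transcript start. The shares at starts are 45.5% and 45.7%, and those in coding exons 7.67% and 0.0377%.

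Coding exons held 29 GC-rich summits (7.67%, 5.39% to 10.8%) and 1 other summit (0.0377%), where 0.990% of all peaks lay (odds ratio 220.2, exact test, adjusted p = 3.12e-25). This class and the rule are linked: 92.7% of the candidates in coding exons that were not kept were GC-rich too, and 30.2% of the GC-rich candidates that were not kept lay in coding exons, a larger share than among the GC-rich peaks. These peaks were weak: the median signal was 66.6, 23 of the 29 were in neither replicate's own list and 3 were in both. The strongest, in a coding exon of otp, the homeodomain gene orthopedia, on 2R at 20884510 to 20884728, had 419.8 pooled, with 232.6 in replicate 1 and 191.5 in replicate 2. The next was in klar, whose product acts in transport along microtubules, on 3L at 506059 to 506394, with 131.7 pooled, 49.8 in replicate 1 and 95.4 in replicate 2. Both of these hold a CTCF-type word, and no other summit in a coding exon does. The remaining peak in both lists, in bib, the gene big brain, had 8.13 and overlapped a stronger peak. Other summits lay in coding sequence of the homeobox gene Optix (62.7), the dopamine receptor gene Dop2R (63.5), the sex-determination gene fru (83.4) and Gapdh1 (57.6), which encodes a glycolytic enzyme, and none of these 4 was in either replicate's own list.

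Close to starts, GC-rich summits were more often downstream of the start. Where a protein-coding start was 500 bp away or less, the median position was 55.5 bp upstream at 162 GC-rich peaks and 123 bp upstream at 1142 other peaks. Upstream of the start lay 127 of 162 (78.4%, 71.4% to 84.0%) and 995 of 1142 (87.1%, 85.1% to 88.9%), against 86.0% of all such peaks (odds ratio 0.536, Fisher's exact test, p = 0.00497). In the peaks of replicate 2's list alone the odds ratio was 0.649 (exact p = 0.114), and in those of replicate 1's list alone 0.495 (exact p = 0.00458). Starts of 2 or more genes lay within 500 bp of 54 GC-rich summits (14.3%, 11.1% to 18.2%) and of 535 other summits (20.2%, 18.7% to 21.8%). In transcribed untranslated sequence were 49 GC-rich summits (13.0%) and 180 others (6.79%), and repeats, marked in lower case in the reference, covered on average 6.98% and 26.3% of the windows. The side of the start, untranslated sequence and repeats may each be linked to base composition, and so to the rule. For these traits no values of GC-rich candidates not kept are given, so the comparisons do not separate them from base composition.

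By arm, GC-rich summits numbered 62 on 2L, 87 on 2R, 81 on 3L, 80 on 3R, 66 on X, 2 on Y and 0 on chromosome 4. As shares of GC-rich and of other peaks, these were 16.4% and 17.6% on 2L, and 23.0% and 17.7% on 2R. On 3L they were 21.4% and 21.2%, and on 3R 21.2% and 22.6%. Of the other peaks 1 lay on Y and 1 on chromosome 4. Only the share on X was tested. Both GC-rich summits on Y lay in intergenic DNA, near Su(Ste):CR42422 with a signal of 102.8 and near FDY with 71.9.

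The 20 strongest GC-rich peaks had signals from 313.9 to 1163.4, and all 20 were in both replicates' own lists. The deposited signal was higher in replicate 1 at 12 and in replicate 2 at 8, with ratios from 0.582 to 1.99. As the replicates' lists are not known to share a scale, such an order at single peaks is given as a description only. By location 11 were at starts, 4 in introns, 4 in intergenic DNA and 1 in a coding exon. The strongest, on 3R at 16222348 to 16222636, lay 908 bp upstream of lncRNA:CR45643 (FBgn0267203), with 597.2 in replicate 1 and 558.0 in replicate 2.

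Of the 11 peaks at starts, the strongest lay at MFS10 (FBgn0030452), a gene of the major facilitator family of transporters, on X at 13131208 to 13131505. Its summit was 163 bp upstream of the nearest start, in annotated untranslated sequence. This peak had 911.3 pooled, 421.9 in replicate 1 and 480.8 in replicate 2. The peak upstream of moody (FBgn0025631), which encodes a receptor of the glial blood-brain barrier, on X at 2050162 to 2050407, had 592.4 pooled, 254.1 in replicate 1 and 351.4 in replicate 2. At egh (FBgn0001404), a glycosyltransferase gene of glycolipid synthesis, the summit was 345 bp downstream of the nearest start, and the peak had 354.9. At Msp300 (FBgn0261836), a nuclear envelope protein of muscle, it was 330 bp upstream, with 338.1.

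Also at a start, Trmt6 (FBgn0031832), a subunit of a tRNA methyltransferase, had a peak with a signal of 497.6. eEF5 (FBgn0285952), a translation elongation factor, had 373.9 pooled, with 247.3 in replicate 1 and 124.3 in replicate 2, and its window holds CAGCACTG. RpS27 (FBgn0039300), a protein of the small ribosomal subunit, had 351.2, and Sry-delta (FBgn0003512), a ZAD zinc-finger protein like CG14667, had 357.3. At Sry-delta the deposited signal was 234.4 in replicate 1 and 133.1 in replicate 2.

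The rest of the 20 lie at or near lncRNA:CR31044 (688.5), mrt (415.8) and CG13501 (421.9), whose starts are within 500 bp, and farther from starts at mub (638.7), sp3 (590.6), CG10651 (445.9), Cib2 (419.8, the summit in otp), CG8745 (407.1), CG12684 (344.7), Eip63E (325.3) and the intergenic summit with 3 CTCF-type copies (313.9). mub encodes an RNA-binding protein with KH domains and Eip63E a cyclin-dependent kinase, and both summits lay in introns. At CG10651 the deposited signal was 165.9 in replicate 1 and 285.2 in replicate 2.

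Known words were counted in the summit window and, as a control, around a point 300 bp to the left. Of 23 motifs, 4 were more frequent at the summit (exact McNemar test, two-sided, p adjusted over the 23 motifs under 0.05), or 17.4%. The rule selects the summit windows for G and C, 52.5% on average against 42.1% in the control windows. It thereby favours words rich in G and C at the summit, such as AGGNGGCGC and CAGCAG, and this test does not separate them from base composition. The CTCF core AGGNGGCGC, of which AGGTGGCGC is 1 form, was at 22 GC-rich summits (5.82%) and in 0 of 378 control windows, which allows a share of up to 0.794% (exact McNemar test, adjusted p = 4.78e-06). It was in 0.151% of other summits, in 0.409% of the windows of all candidates, and in 0.579% of those of GC-rich candidates that were not kept. With the control window to the right, 22 summits and 1 control window held it (exact McNemar test, adjusted p = 4.39e-05).

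The DRE, TATCGATA, was at 8 GC-rich summits (2.12%) and in 0 control windows (exact McNemar test, adjusted p = 0.0257), in 0.868% of other summits and in 0.204% of all candidate windows. The BEAF-32 word CGATA, which is part of the DRE, was at 68 (18.0%) and in 33 (8.73%) control windows (exact test, adjusted p = 0.00144), in 13.8% of other summits and in 10.2% of all candidate windows. With the control to the right both missed the threshold, at exact adjusted p = 0.128 and 0.333, and with a GC limit of 50% likewise, at 0.319 and 0.508. The DRE also missed it without replicate 2 (exact test, adjusted p = 0.0738). CAGCAG was at 51 summits (13.5%) and in 25 control windows (6.61%, exact test, adjusted p = 0.00712), but in 15.1% of GC-rich candidates that were not kept and 11.4% of all candidate windows. It missed the threshold with the control to the right, a window of 100 bp to either side, a GC limit of 40%, and without replicate 1 or replicate 2 (exact test, adjusted p = 0.0714, 0.0616, 0.0821, 0.531 and 0.368).

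Of the words made of A and T alone, TATAAA was at 11 summits and in 48 control windows, TAATTA at 5 and 24, and AAAAAAA at 8 and 42. They were in 7.40%, 4.81% and 6.40% of all candidate windows. The rule selects summit windows for G and C, 52.5% on average against 42.1% in the control windows, so a deficit of these words is fixed by it and is given as a description with no test. Against GC-rich candidates that were not kept, a comparison added after the data were seen, the CTCF core (odds ratio 10.6), the DRE (21.1) and CGATA (2.09) were more frequent at the GC-rich summits (Fisher's exact test, adjusted p = 7.35e-14, 1.42e-07 and 2.83e-06), and CAGCAG did not pass the test (0.879, adjusted p = 0.684). Nor did the 3 words made of A and T: the odds ratio was 1.22 for TATAAA, 0.593 for TAATTA and 1.05 for the A tract (Fisher's exact test, adjusted p = 0.715, 0.620 and 0.922). GGTCACACT, the word of the zinc-finger protein M1BP, was at 3 GC-rich summits and in 61 of 75340 such candidates (odds ratio 9.87, exact test, adjusted p = 0.0236). GCGCANGC, of the NRF-1 type, was at 12 and in 1040 (odds ratio 2.34, exact test, adjusted p = 0.0335). These 2 words are in 0.0830% and 0.988% of all candidate windows, and against the control window neither passed the test. The comparison with GC-rich candidates not kept is not matched for location. At starts were 45.5% of the GC-rich summits but 12.6% of those candidates, so words frequent at promoters may differ for that reason alone, which was not tested. This limit holds for the word counts below as well.

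Words of 8 letters were then ranked by their excess at GC-rich summits over GC-rich candidates that were not kept; they were chosen from these counts and have no test. GATGGCGC led with 27 summits (7.14%) against 0.506% of those candidates, and AGATGGCG and AGGTGGCG followed with 25 and 21. The 2 words AGATGGCGC and AGGTGGCGC were together at 33 GC-rich summits (8.73%, 6.28% to 12.0%), in 1 window to the left and 0 to the right, at 9 other summits (0.339%) and in 226 of the 75340 GC-rich candidates not kept (0.300%). Of the GC-rich candidates with either word 12.7% were kept, against 0.499% of all GC-rich candidates.

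The 33 summits with a CTCF-type word had a median signal of 124.5, against 80.4 for all GC-rich peaks, and 23 (69.7%, 52.7% to 82.6%) were in both replicates' own lists. They lay at starts (13), in introns (11), in intergenic DNA (5), in coding exons (2) and in other exons (near ush and CG42700), and none overlapped a stronger peak. The 44 copies were a median of 30 bp from the summit, with 15 within 20 bp and 29 beyond. Only copies in the window of 50 bp to either side were counted, and within it they were not concentrated at the summit. Further summits with these words lay upstream of Pgant4 (131.3 pooled, 56.4 in replicate 1 and 80.6 in replicate 2), a glycosyltransferase gene, and upstream of Tpst (107.5 pooled, 61.1 and 51.2), the gene of a tyrosine sulfotransferase. The weakest, near CG13306 (66.4), was in neither replicate's own list.

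A further 3 words were mostly at starts. CAGCACTG was at 16 GC-rich summits, 14 of them at starts, CACAGTGG at 19, of which 13 were at starts, and ATCGATA at 17, all at starts. Their shares were 4.23%, 5.03% and 4.50% of GC-rich summits, 0.339%, 1.02% and 2.30% of other summits and 0.465%, 0.575% and 0.783% of GC-rich candidates not kept. Median signals were 93.8, 80.3 and 101.9. Of the windows to the left and to the right of the GC-rich summits, CAGCACTG was in 0 and 2, CACAGTGG in 2 and 1, and ATCGATA in 4 and 10. None of these words or the CTCF-type words was at 296 of the 378 GC-rich summits (78.3%), which had a median signal of 76.5 and of which 99 (33.4%) were in both own lists; the strongest GC-rich peak is one of them.

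Genes with a GC-rich summit near a start were counted against all genes, with no test. A GC-rich summit lay within 500 bp of a start of 203 of 13968 protein-coding genes (1.45%), and of 224 of all 18277 genes (1.23%), while other summits lay at 1577 protein-coding genes (11.3%). Cytoplasmic ribosomal protein genes had the highest share of the 18 lists. Of the 93 genes that match their symbols, which take in paralogs and the stathmin gene stai, 17 had a GC-rich summit (18.3%) and 17 another summit (18.3%). The count was 17 within 250 bp, 18 within 1000 bp, 13 with the GC-rich peaks of replicate 2's list alone, and 18 with those of replicate 1's list alone.

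The 17 ribosomal protein summits lay from 100 bp upstream to 42 bp downstream of the nearest start, with a median of 36 bp upstream. Their signals ran from 86.0 to 351.2 with a median of 151.4, against a median of 91.7 at the other 155 GC-rich summits at starts. RpS27 led with 185.8 in replicate 1 and 167.3 in replicate 2, followed by RpL7 (FBgn0005593) with 161.2 and 107.6, RpS21 (FBgn0015521) with 120.0 and 128.8, and RpL41 (FBgn0066084) with 128.8 and 110.8. All 17 were in the own list of replicate 1 and 12 in that of replicate 2, beside 90 and 90 of the other 155 GC-rich summits at starts. RpS5a, RpS25, RpL31, RpS29 and RpL12 had no peak in the list of replicate 2. ATCGATA was in 7 of the 17 windows, those of RpL41, RpS28b, RpS15Aa, RpS25, RpS29, RpL37-1 and RpL12, CAGCACTG in that of RpL7, and a CTCF-type word in none. Of the other 155 windows at starts, ATCGATA was in 10, CAGCACTG in 13 and a CTCF-type word in 13. These differences were not tested. The G and C content of the 17 windows ran from 45.5% to 61.4%.

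Among translation factors 4 of 54 (7.41%) had a GC-rich summit: eEF5, eEF1gamma (FBgn0029176, 216.8), eIF5B (FBgn0026259, 163.8) and eEF1alpha1 (FBgn0284245, 110.3), and all 4 peaks were in both own lists. Of the other 168 GC-rich summits at starts, 76 were in both. Mitochondrial ribosomal protein genes had 1 of 73 (1.37%), mRpL18 (78.9), and vesicle transport genes 2 of 124 (1.61%), Rab18 (96.5) and AP-1gamma (2.75), both shares near the 1.45% of all protein-coding genes. Another summit lay at 14 (19.2%) and 25 (20.2%) of these genes, beside 11.3% of all protein-coding genes. Proteasome genes had 1 of 48, Prosbeta5R2 (49.6), respiratory chain genes 1 of 90, COX5B (95.4), V-ATPase genes 1 of 33, Vha16-5 (149.1), cytoskeleton genes 1 of 43, zip (64.7), glycolysis genes 1 of 17, Pglym78 (67.3), and ZAD zinc-finger genes 1 of 18, Sry-delta. Histone, heat shock and chaperone, insulator and architecture, and Hox genes had 0. Another summit lay at 7 of 38 heat shock and chaperone genes (18.4%) and at 9 of 26 insulator and architecture genes (34.6%). It lay at 1 histone gene (0.870%) and at 0 of 8 Hox genes. These lists are small and were not tested. A count of 0 in them is therefore not read as below the 1.45% of all protein-coding genes.

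**Figure D5:**
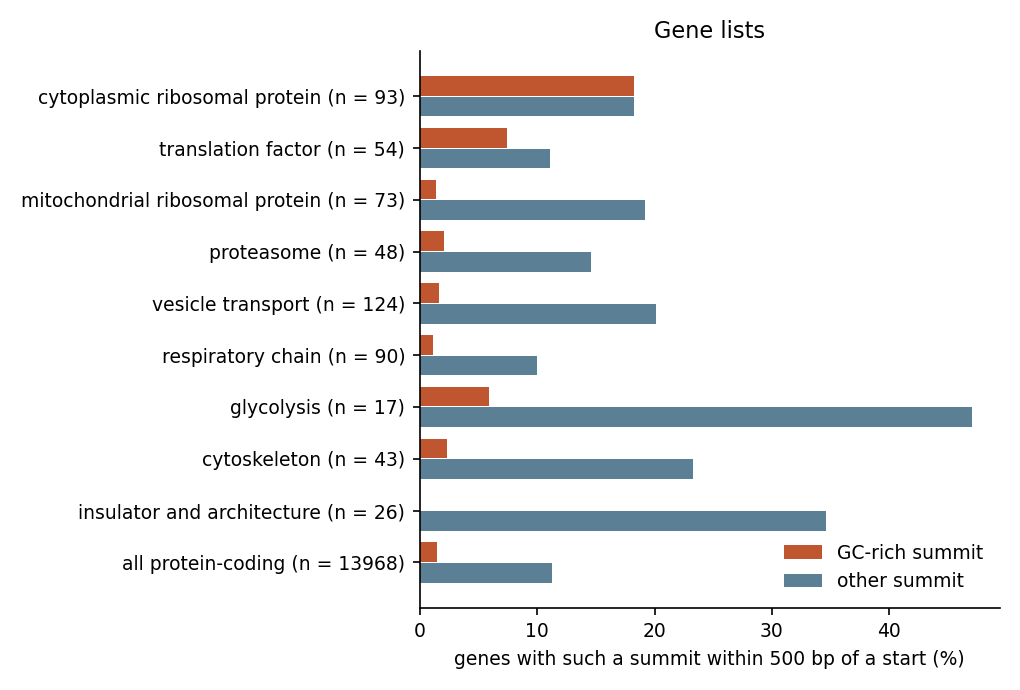
Share of the genes of 9 lists, and of all protein-coding genes, with a GC-rich summit or another summit within 500 bp of a start (the number of genes is given beside each name). Cytoplasmic ribosomal protein genes have 18.3% for each, where all protein-coding genes have 1.45% and 11.3%.

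Small RNA genes are set beside the 1.23% of all genes. tRNA genes had 2 of 290 (0.690%), tRNA:Phe-GAA-1-2 and tRNA:Trp-CCA-2-2, whose peaks (97.8 and 94.7) also lay at starts of RpL17 and CG30122. snoRNA genes had 4 of 269 (1.49%), at 3 peaks, 2 of which lay at RpS29 and RpL17 and the third at Uhg4 (252.2), a host gene of snoRNAs. snRNA genes had 1 of 32, snRNA:U1:21D (62.5), and rRNA genes had 0 of 99.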

How the data were processed

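ChIP-seq peaks of CG14667-eGFP in whole embryos (2 biological replicates, 1 group) were analysed. Per the file headers, which list the deposited files, the authors called peaks on dm6 alignments against a control and ranked and thresholded them by IDR, the irreproducible discovery rate; as to the caller and aligner, neither is given in the sources used here. The deposited signal is a peak's enrichment on a scale that is not stated, and the deposited score is an IDR score with a ceiling of 1000 (lowest here 830). Deposited summit offsets gave the summits. Pooled values come from the lists of both replicates together. In the ranked lists of the series 8 per-replicate columns were not used, because no label assigns them to a replicate; replicate values come from each replicate's own lists.

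G and C were counted in dm6, whose arm lengths hold every candidate. Starts (23697) and genes come from Ensembl release 115, with transposable elements left out. A summit within 500 bp of a start counted as at a start, and an overlap of 1 bp counted as support. Shares were compared by Fisher's exact test, motifs by the exact McNemar test, and covariates by logistic fits, with Benjamini-Hochberg adjustment over 5 location tests and over 23 motifs. Intervals on shares are 95% Wilson intervals. Python 3.11.15 code with scipy 1.17.1 and statsmodels 0.14.6 was used, and the tests were run on simulated peaks with known answers. The members and all lists were chosen with earlier results of these data known. Named genes are those nearest the 20 strongest GC-rich peaks, up to 4 of each of 18 gene lists by signal, the 3 peaks on either side of the GC limit, and members of counts of 5 or fewer. The further ribosomal protein genes, the genes beside printed sequences, the summits in coding exons and those with CTCF-type words were named after their values were seen.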

Additional observations from a re-analysis of the deposited data

How the results depend on the processing

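Values for shares are odds ratios, GC-rich over other peaks. The lower share of GC-rich peaks above the median signal and the lower share of GC-rich candidates kept held in all 12 and all 9 alternatives, with odds ratios of 0.258 to 0.583 and 0.0751 to 0.120. The higher share in coding exons held in the 8 alternatives that gave an odds ratio; in 5 others, both single replicates among them, no other peak lay there. The lower share in introns held in 12 of 13 and was 0.750 (exact test, adjusted p = 0.0522) with a window of 100 bp to either side. Coding exons and introns are both linked to the rule, so the alternatives do not separate these shares from base composition. Support by both replicates was 0.783 (exact p = 0.109) with the highest IDR score only, 1.06 with log2 signal as a term, and 1.02 with that term and the overlapping peaks left out. The share at starts, 0.993 in the main comparison, ranged from 0.771 (exact test, adjusted p = 0.0522; window of 100 bp to either side) to 1.47: it was 0.837 with a GC limit of 50%, 1.03 with a GC limit of 40%, 1.10 without soft-masked windows, 0.790 (exact test, adjusted p = 0.0202) in the other thresholded list, 1.47 with the highest IDR score only, 1.08 at a distance of 250 bp, 1.25 with log2 signal as a term, 1.30 with that term and the overlapping peaks left out, 1.06 without the overlapping peaks, and 0.982 to 1.06 with either replicate left out. The intergenic share was 0.797 (exact test, adjusted p = 0.452) with the highest IDR score only. The share on X was 0.643 (exact test, adjusted p = 0.0458) with a GC limit of 50%, 0.739 (adjusted p = 0.0202) in the other list, 1.10 with a window of 100 bp, and 0.964 to 1.01 with either replicate left out. The upstream share was 0.495 to 0.649 with either replicate left out. The number of motifs more frequent at the summit, 4 here, was 2 with the control to the right, 2 with a GC limit of 50%, and 2 to 3 with either replicate left out. The CTCF core passed under all 9 alternatives. All but the comparison with GC-rich candidates not kept use a control window, which does not separate this word from base composition. That comparison is not matched for location. Against GC-rich candidates not kept, the TATA box (1.22), CAGCAG (0.879) and the A tract (1.05) changed direction. Protein-coding genes with a GC-rich summit, 203 here, numbered 361 and 108 with GC limits of 40% and 50%. The causes were not tested. No paired analysis was possible because there is only 1 group. The overlapping-peak, summit-distance, ranked-list and candidate comparisons were added after the data were seen. The number of replicates and the unknown depth limit what can be said of single weak peaks.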

Other observations

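Overlapping peaks were one-sided across the whole list. Of the 90 peaks that overlapped a stronger peak, 39 were GC-rich (43.3%), although GC-rich peaks make up 12.5% of the list, and at 89 of the 90 the stronger peak lay at lower coordinates. All 39 GC-rich ones were 336 bp wide, the most common width of the list. G and C at these 39 peaks averaged 31.3% (SE 2.42) in the 21 bp centred 200 bp to the left, where the stronger summit lies, 54.0% (SE 1.85) at their own summit and 43.1% (SE 1.75) 200 bp to the right. A further GC-rich peak, at l(2)k01209, had a pooled signal of 2.43 but overlapped a replicate 1 peak of 130.1 and no peak of replicate 2. The cause of this pattern was not tested.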
